A study of Mus musculus with 6 samples.

Results

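The genes described here mostly encode the protein core of the spliceosome. They are the genes of the count table whose symbols match the names of the small nuclear ribonucleoprotein (snRNP) proteins (Snrp and Snrnp), the like-Sm proteins (Lsm), the SF3a and SF3b proteins, and both U2AF subunits, and they number 41 of the 23420 genes in the table. They were chosen by name, not by their levels, though with earlier results of these data known. The names also take in 5 genes of U7 and other LSm proteins (*Lsm10*, *Lsm11*, *Lsm12*, *Lsm14a* and *Lsm14b*). All 41 are counted as spliceosome genes below. The study asked how knockdown of the kinase DYRK1A and treatment with harmine, a small molecule that inhibits DYRK kinases, compare in activated CD4+ T cells. RNAseq was carried out on 6 libraries in 3 groups of 2. All came from splenic CD4+CD62L+ T cells of 12-week-old BALB/c mice, activated with plate-bound antibodies to CD3 and CD28. After 24 h, each well received 10 µl of concentrated shRNA lentivirus, and 24 h later the cells were fed with medium and IL-2 and harvested after another 48 h. The control group carried a scrambled shRNA, the harmine group carried the same scrambled shRNA and received 3.7 µM harmine at feeding, and the *Dyrk1a* shRNA group carried shRNA against *Dyrk1a* without harmine. All 3 groups were therefore transduced, and no library came from cells without virus. The labels do not say which hairpin was used, or whether replicates came from separate mice or cultures, so that p-values measure only the spread between these libraries, which may be technical.

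Introns are removed by snRNPs, particles in which a short nuclear RNA is held in a ring of Sm proteins together with proteins particular to each particle. U1 recognizes the start of the intron, U2 and its SF3a and SF3b complexes hold the branch site, the U2AF heterodimer reads the polypyrimidine tract and the end of the intron, and U6, which carries a ring of LSm proteins, joins U4 and U5 in the tri-snRNP before catalysis. A related LSm ring outside the nucleus marks messages for decapping. SF3B1 is a known substrate of DYRK1A. All of this acts on proteins, whereas the libraries measure messenger RNA, so that phosphorylation of a splicing factor would not be seen in them.

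The start sites of 32 of the 41 genes had a promoter in RefSeq on GRCm38.p6, all but those of *Lsm1*, *Lsm12*, *Lsm4*, *Sf3b4*, *Sf3b5*, *Snrnp40*, *Snrpb*, *Snrpd1* and *U2af2*. The 250 bases before each start were searched on both strands for the ETS motif CCGGAAG, which 11 of the 32 promoters held (34.4%), against 7.83% of 27025 genes in all. The GC box GGGCGG was present in 20 (62.5%, against 35.4% of all genes), CCAAT in 12 (37.5%, against 37.5%), TATAAA in 4 (12.5%, against 14.3%) and CACGTG in 1 (3.12%, against 6.86%). No motif holds another within it, and a match describes the letters and not a bound site. The promoters of 4 genes on which the results below turn are shown, without bases that GENCODE M21 places inside the gene, each on the minus strand and read 5′ to 3′, with the ETS motif in capitals on whichever strand it was found. They cover chr6:86684523-86684741 of *Snrnp27*, chr6:56704711-56704949 of *Lsm5*, chr1:133610292-133610530 of *Snrpe* and chr1:55027482-55027728 of *Sf3b1*.
Snrnp27: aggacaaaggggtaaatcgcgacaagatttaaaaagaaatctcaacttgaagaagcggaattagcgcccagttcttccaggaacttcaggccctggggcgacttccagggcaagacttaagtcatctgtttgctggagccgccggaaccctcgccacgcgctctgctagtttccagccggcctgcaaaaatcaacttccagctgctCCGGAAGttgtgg
Lsm5: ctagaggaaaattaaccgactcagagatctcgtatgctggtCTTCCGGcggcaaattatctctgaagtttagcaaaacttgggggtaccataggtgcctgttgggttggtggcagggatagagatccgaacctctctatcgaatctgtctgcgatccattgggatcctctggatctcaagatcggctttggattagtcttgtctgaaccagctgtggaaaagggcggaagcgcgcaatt
Snrpe: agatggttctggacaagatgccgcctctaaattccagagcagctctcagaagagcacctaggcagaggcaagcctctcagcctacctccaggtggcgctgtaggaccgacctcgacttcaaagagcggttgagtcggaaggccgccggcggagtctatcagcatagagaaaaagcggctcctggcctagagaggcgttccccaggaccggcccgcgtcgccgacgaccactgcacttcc
Sf3b1: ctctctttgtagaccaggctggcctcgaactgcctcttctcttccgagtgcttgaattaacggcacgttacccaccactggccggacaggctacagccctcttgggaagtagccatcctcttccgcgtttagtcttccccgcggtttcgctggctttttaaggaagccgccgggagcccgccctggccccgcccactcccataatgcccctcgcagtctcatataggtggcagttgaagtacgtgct
*Snrnp27*, which had the smallest p of the genes described here with *Dyrk1a* shRNA, and *Lsm5*, which had the smallest between *Dyrk1a* shRNA and harmine, each hold 1 match, *Lsm5* in the reverse orientation. The promoters of *Snrpe* and *Sf3b1*, the highest of these genes per length and in CPM respectively, hold none. The other genes with a match are *Sf3a1*, *Sf3a2*, *Sf3a3*, *Sf3b2*, *Sf3b3*, *Snrnp200*, *Snrpb2*, *Snrpc* and *Snrpg*. *Snrnp48* and *Snrpd2*, which like *Snrpb2* and *Snrpc* had an unadjusted p under 0.05 with *Dyrk1a* shRNA (edgeR quasi-likelihood test), hold none. A relation of the motif to the changes was not tested.

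The libraries were shallow, with totals from 1096345 to 3747648 expected counts, and the 41 genes together took 0.259% to 0.328% of them. The controls were the 2 smallest libraries. *Dyrk1a*, the target of the shRNA, was at 58.4 and 82.7 CPM (counts scaled by library size and TMM factors to a common total) in the controls, at 74.8 and 77.6 with harmine and at 60.2 and 61.9 with *Dyrk1a* shRNA. The libraries labelled *Dyrk1a* shRNA lay between the controls, and the log2 fold change was -0.19 (standard error 0.21, edgeR quasi-likelihood test with Benjamini-Hochberg adjustment, adjusted p = 0.835). It was -0.45 without control replicate 1 and 0.069 without control replicate 2. Against harmine it was -0.32 (standard error 0.20, same test, adjusted p = 0.88), with both *Dyrk1a* shRNA libraries below both with harmine. A reduction of the *Dyrk1a* message was thus not shown in these libraries. T cell identity markers summed to between 2503 and 2781 CPM over 8 genes in every library. Markers of other cells were low but not level: 8 myeloid markers summed to 67.2 and 28.7 CPM in the controls, 36.1 and 25.1 with harmine and 33.3 and 24.2 with *Dyrk1a* shRNA. B cell markers (9 genes) summed to 30.1 to 46.4, CD8 T and NK markers (9 genes) to 44.7 to 73.4, and erythroid and platelet markers (7 genes, of which *Hba-a2* was at 0) to 18.0 to 32.6. The part of these cells in the results below was not tested.

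**Figure D1:**
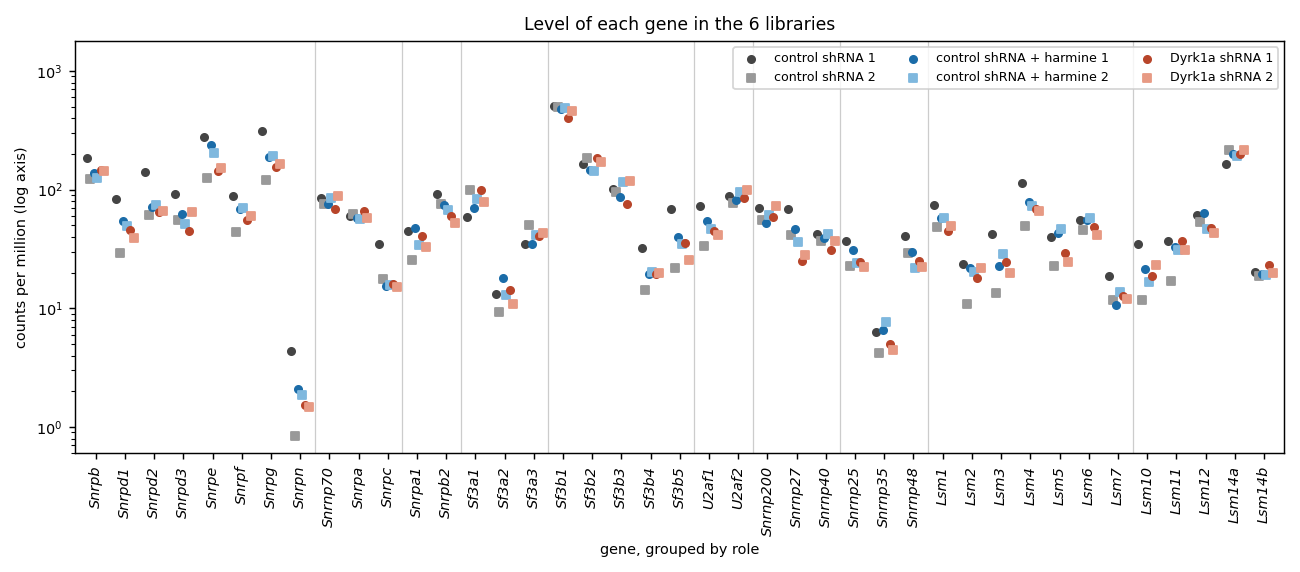
Level of each of the 41 genes in the 6 libraries, in CPM on a log axis, grouped by role (grey lines part the roles). Circles are replicate 1 and squares replicate 2, grey for control shRNA, blue for control shRNA with harmine and red for *Dyrk1a* shRNA. The dark grey circle of control replicate 1 stands highest for most Sm ring and LSm ring genes and the light grey square of control replicate 2 often lowest.

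All 41 genes had counts in every library. *Sf3b1*, the largest SF3b subunit, which contacts the branch site, had the highest level per library, at 503 and 501 CPM in the controls, 475 and 490 with harmine and 402 and 464 with *Dyrk1a* shRNA. It lay lower in all treated libraries than in both controls, by small margins. *Lsm14a*, which encodes a cytoplasmic RNA granule protein, followed at 163 and 214 in the controls, 198 and 193 with harmine and 201 and 214 with *Dyrk1a* shRNA, with every treated library inside the range of the controls.

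Among the Sm ring genes, *Snrpe* was at 279 and 127 CPM in the controls, 238 and 202 with harmine and 145 and 153 with *Dyrk1a* shRNA. *Snrpg* was at 310 and 121, at 190 and 191, and at 155 and 164 in the same order. For both genes all treated libraries lay between the 2 controls, which differed more than 2-fold. *Snrpb*, at 185 and 122, 138 and 125, and 146 and 143, also stayed between the controls, and *Sf3b2*, a U2-associated SF3b subunit, was at 166 and 183 in the controls, 145 and 143 with harmine and 186 and 170 with *Dyrk1a* shRNA, so that the harmine libraries were the lowest and the *Dyrk1a* shRNA libraries overlapped the controls.

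Levels can be set between genes only per length. Divided by the longest transcript of the gene, *Snrpe* had the highest level of the 41 (285 CPM per kb, range over libraries 189 to 417) and *Snrpg* the second (179, range 114 to 294). The ranges overlapped, but within each of the 6 libraries *Snrpe* was above *Snrpg* on this scale. *Snrpb* (83.8, range 71.5 to 108), *Lsm4* (81.1, range 52.9 to 124) and *Sf3b1* (76.3, range 64.9 to 81.2) came next and overlapped as well. *Snrpn*, the Sm gene of the imprinted locus best known from brain, was last at 0.978 CPM per kb (range 0.407 to 2.12), with 7 and 1, 7 and 7, and 4 and 5 counts in the control, harmine and *Dyrk1a* shRNA libraries. It was the 1 gene that did not pass the filter on low counts, and it shares 216 bases of identical transcript with *Snurf*, so that its counts could not be assigned with certainty. With the median coding transcript as length, *Snrpe*, *Snrpg* and *Snrpn* kept their places, while *Snrnp70* moved from rank 25 to rank 4 and *Snrpc* from rank 40 to rank 31.

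These genes differed more between the 2 controls than between the replicates of either other group. Of the 40 genes tested, 35 were higher in control replicate 1 than in replicate 2, with a median difference of 0.63 on the log2 scale (all 10607 genes tested, -0.0044). They were more than 2-fold higher in replicate 1 for 13 (32.5%), against 7.34% of all genes, and the difference ranged from -0.74 for *Sf3a1* to 1.62 for *Sf3b5*. Between the harmine replicates the median was 0.0097 and between the *Dyrk1a* shRNA replicates 0.047, and none of the 40 differed over 2-fold within either pair.

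Summed by role, the Sm ring genes took 1182 and 561 CPM in the controls, 825 and 765 with harmine and 657 and 692 with *Dyrk1a* shRNA. The LSm ring genes, 7 of the 8 listed for this role, took 369 and 202, 292 and 297, and 246 and 237. These are *Lsm1* to *Lsm7*, the set that forms the decay ring outside the nucleus. The treated libraries of both roles lay between the controls, with harmine above *Dyrk1a* shRNA. The SF3a genes ran the other way between the controls, at 107 and 159, 124 and 139, and 154 and 133, again with the treated libraries inside.

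The difference between the controls moved with transcript length, in these genes and in the table as a whole. Over all genes it had a median of 0.97 where the longest transcript was under 1 kb, 0.34 from 1 to 2 kb, -0.019 from 2 to 4 kb and -0.17 above 4 kb. In the same bins the spliceosome genes had medians of 1.13 (7 genes), 0.68 (12), 0.29 (13) and 0.25 (8), each above that of all genes. Binned by their median coding length instead, they had medians of 1.01 (15 genes), 0.54 (14), 0.19 (6) and 0.061 (5). The Spearman correlation with coding length was -0.47 across the 40 genes, which share their 2 libraries, and with longest length -0.36 across the 9990 genes with a length. The medians of the harmine and *Dyrk1a* shRNA pairs stayed between -0.24 and 0.19 in every bin. The part of length in the comparisons with control was not tested beyond the removal of its trend given below.

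**Figure D2:**
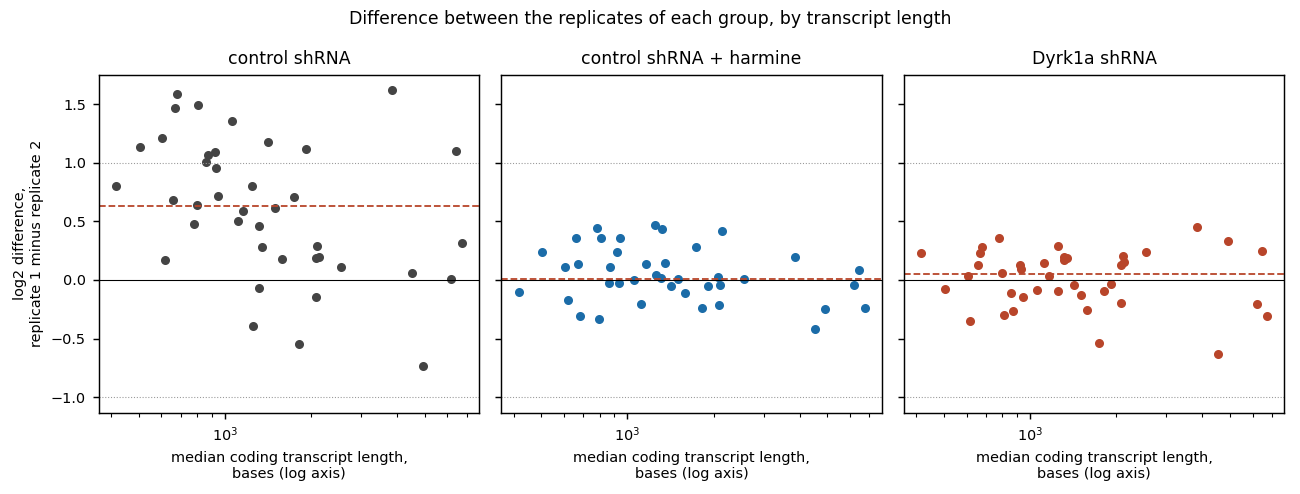
Difference between replicate 1 and replicate 2 of each group on the log2 scale, against the median coding transcript length of the gene in bases (log axis), for the 40 genes tested. Each point is a gene, the dashed line is the median over genes and dotted lines mark 2-fold; 13 genes lie above the upper dotted line for the controls and none lies outside the dotted lines for the other groups.

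With harmine, no gene of the 40 passed an adjusted p of 0.05 (edgeR quasi-likelihood test with Benjamini-Hochberg adjustment, smallest adjusted p = 0.903), where 0.00943% of all genes did. At an unadjusted p under 0.05, 0 were higher (2.22% of all genes) and 1 was lower (3.07%), and DESeq2's Wald test gave 0 at either level. The median log2 fold change was -0.10, with 14 above and 26 below 0, against a median of -0.019 with 47.5% above 0 over all genes. Both harmine libraries were above both controls for 2 of the 40 (5%, background 16.4%) and below both for 5 (12.5%, background 15.9%), namely *Sf3b1*, *Sf3b2*, *Snrpa*, *Snrpb2* and *Snrpc*. Both harmine libraries lay between the controls for 20 genes (50%), against 28.8% of all genes. In bulk libraries, fewer cells with a message and less of it per cell cannot be told apart.

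*Snrpc* (chr17:27838150-27851968, plus strand), a U1 protein that helps hold the start of the intron, had the smallest p. It was at 35.2 and 17.7 CPM in the controls, 15.5 and 15.8 with harmine and 16.1 and 15.0 with *Dyrk1a* shRNA. All treated libraries were below both controls, but control replicate 2 was close to them. The log2 fold change with harmine was -0.79 (standard error 0.31, edgeR quasi-likelihood test, adjusted p = 0.903), and without control replicate 1 it was -0.18.

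*Lsm5* (chr6:56701063-56704710, minus strand), a ring subunit shared by the U6 and decay complexes, had the highest fold change of the LSm ring genes with harmine. Its levels were 40.2 and 22.8 CPM in the controls, 43.5 and 46.7 with harmine and 29.1 and 24.8 with *Dyrk1a* shRNA. Both harmine libraries were above both controls, and both *Dyrk1a* shRNA libraries lay between the controls. Its log2 fold change was 0.49 (standard error 0.25, edgeR quasi-likelihood test, adjusted p = 0.928), which ran from 0.17 without control replicate 2 to 0.98 without control replicate 1. With harmine the value was 0.72 once trends with length and GC content were removed (edgeR quasi-likelihood test, adjusted p = 0.539). With *Dyrk1a* shRNA *Lsm5* was at -0.26 against control, and at 0.52 once those trends were removed (edgeR quasi-likelihood test, adjusted p = 0.851). *Snrnp35*, a protein of the minor spliceosome, was the other gene with both harmine libraries above both controls, at 6.28 and 4.22 CPM in the controls, 6.56 and 7.66 with harmine and 4.98 and 4.42 with *Dyrk1a* shRNA. These are 10 and 5 counts in the controls, and its log2 fold change was 0.41 (standard error 0.46).

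By role, the highest and lowest log2 fold changes with harmine were *Snrpe* at 0.11 (standard error 0.28) and *Snrpd2* at -0.48 (0.28) in the Sm ring, *Snrnp70* at 0.0091 (0.20) and *Snrpc* in U1 (standard errors in parentheses), and *Snrpa1* at 0.19 (0.27) and *Snrpb2* at -0.25 (0.20) in U2. In SF3a they were *Sf3a2* at 0.42 (0.35) and *Sf3a3* at -0.12 (0.23), in SF3b *Sf3b3* at 0.038 (0.23) and *Sf3b5* at -0.32 (0.37), and in U2AF *U2af2* at 0.099 (0.19) and *U2af1* at -0.11 (0.27). In the U5 and tri-snRNP group they were *Snrnp40* at 0.042 (0.22) and *Snrnp27* at -0.43 (0.24), in the U11/U12 group *Snrnp35* and *Snrnp48* at -0.47 (0.26), in the LSm ring *Lsm5* and *Lsm7* at -0.35 (0.33), and among the other LSm genes *Lsm11*, a U7 snRNP protein that acts in histone message processing, at 0.19 (0.29) and *Lsm10*, its ring partner, at -0.35 (0.37). *Snrpd3*, also of the Sm ring, was at -0.40 (0.25). Apart from *Snrpc*, the unadjusted p of each of these was over 0.05.

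With *Dyrk1a* shRNA against control, again 0 of the 40 passed (edgeR quasi-likelihood test with Benjamini-Hochberg adjustment, smallest adjusted p = 0.612), where 0.0189% of all genes did. At an unadjusted p under 0.05, 0 were higher (3.1% of all genes) and 5 were lower (12.5% of the 40, against 4.59% of all genes), and the Wald test of DESeq2 gave 2, with 0 after adjustment. The median log2 fold change was -0.23, with 12 above and 28 below 0, against a median of -0.013 with 48.3% above 0 over all genes. Both *Dyrk1a* shRNA libraries were above both controls for 0 genes (background 18.5%) and below both for 6 (15%, background 16.9%), namely *Lsm12*, *Sf3b1*, *Snrnp27*, *Snrnp48*, *Snrpb2* and *Snrpc*. For 19 genes (47.5%) they lay between the controls, against 25.6% of all genes.

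*Snrnp27* (chr6:86675151-86684522, minus strand), which encodes a tri-snRNP protein, had the smallest p. It was at 68.4 and 41.4 CPM in the controls, 46.5 and 36.2 with harmine and 25.3 and 28.0 with *Dyrk1a* shRNA. The *Dyrk1a* shRNA libraries were the lowest of the 6 and overlapped neither other group, while the harmine libraries overlapped the controls. The log2 fold change was -1.06 (standard error 0.26, edgeR quasi-likelihood test, adjusted p = 0.612). It was -0.64 without control replicate 1 and -1.35 without control replicate 2, where it passed (adjusted p = 0.00288), and with no filter on low counts it was -1.04 and passed as well (adjusted p = 0.0183). Without that filter 28 of all 15589 genes passed, against 2 of 10607 with it. Taking out the trends of length and GC content brought *Snrnp27* to -0.70. Over all alternatives the adjusted p of *Snrnp27* ran from 0.00288 to 1.

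*Snrpb2* (chr2:143063039-143072853, plus strand), the U2 B″ protein that binds a stem loop of U2 RNA, was at 91.6 and 75.1 CPM in the controls, 74.2 and 67.1 with harmine and 60.2 and 52.8 with *Dyrk1a* shRNA. Each group lay below the one before it without overlap, with a log2 fold change of -0.57 for *Dyrk1a* shRNA (standard error 0.20, edgeR quasi-likelihood test, adjusted p = 0.612). Removing length and GC trends brought it to -0.30. The U11/U12 gene *Snrnp48* was at 40.8 and 29.5 CPM in the controls, 29.8 and 21.9 with harmine and 24.9 and 22.1 with *Dyrk1a* shRNA (log2 fold change -0.60, standard error 0.26, edgeR quasi-likelihood test, adjusted p = 0.62). Its *Dyrk1a* shRNA libraries were below both controls and overlapped those with harmine.

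The Sm ring gene *Snrpd2* was at 141 and 61.6 CPM in the controls, 72.1 and 75.0 with harmine and 64.4 and 66.3 with *Dyrk1a* shRNA. All 4 treated libraries lay between the controls, and its log2 fold change was -0.65 (standard error 0.29, edgeR quasi-likelihood test, adjusted p = 0.627), but 0.077 without control replicate 1. *Snrpc* had a log2 fold change of -0.80 (standard error 0.31, edgeR quasi-likelihood test, adjusted p = 0.612). *Snrpd3* was at 91.6 and 55.7 CPM in the controls, 62.0 and 51.0 with harmine and 44.4 and 64.9 with *Dyrk1a* shRNA, with overlap between all groups (log2 fold change -0.44, standard error 0.25). The sum of *Snrpd3* and all counts of *Gucd1*, which it overlaps on the opposite strand, was at -0.056 with *Dyrk1a* shRNA and -0.090 with harmine.

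**Figure D3:**
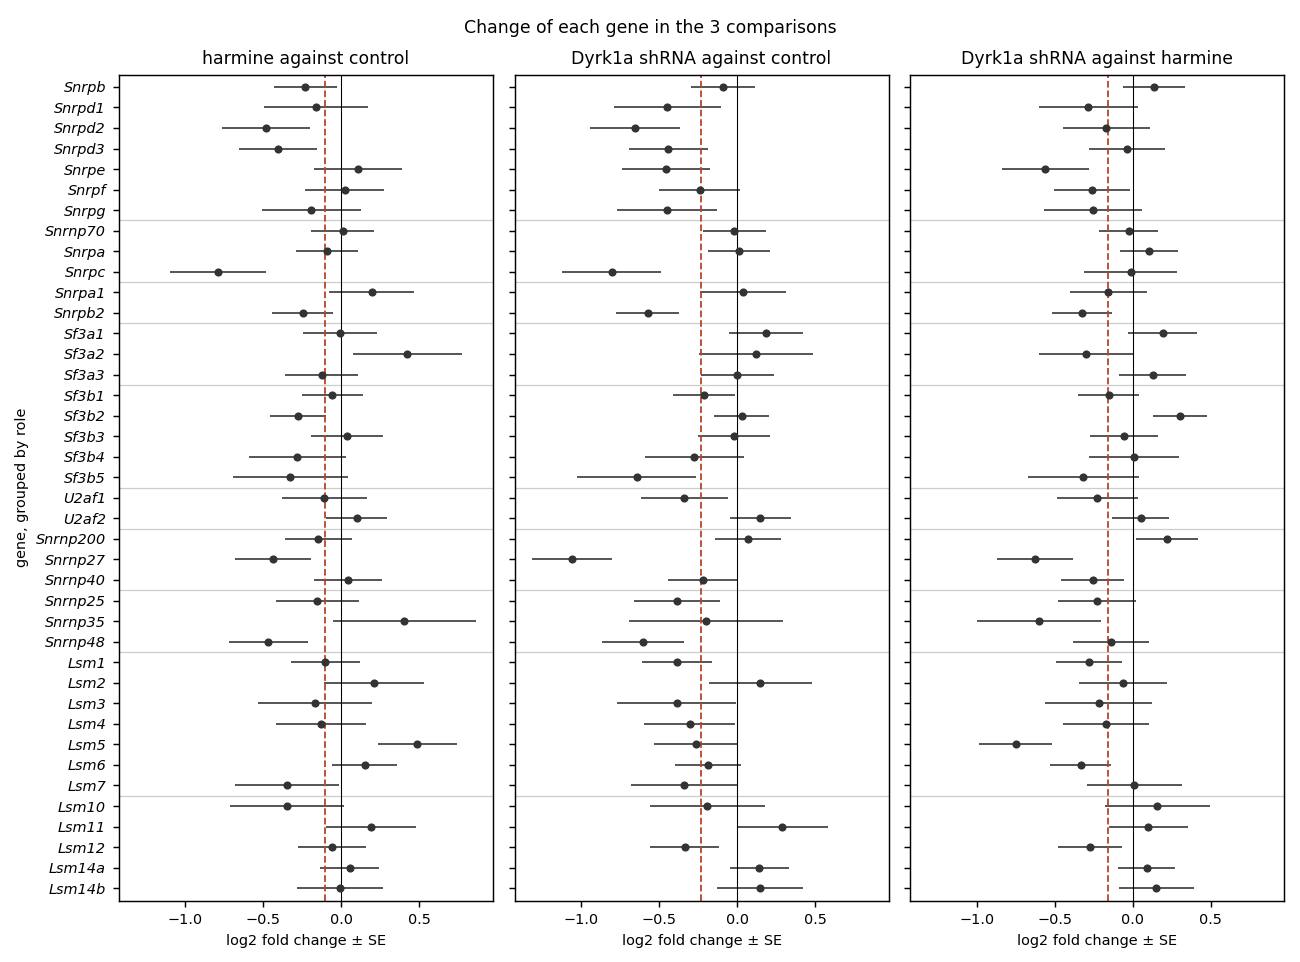
Log2 fold change of each of the 40 genes tested in the 3 comparisons, with bars of 1 standard error, grouped by role. The dashed line is the median over the genes, at -0.10, -0.23 and -0.16 from left to right; the standard error bars of most genes reach 0 or come near it.

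In the Sm ring, all 7 genes tested were below 0 with *Dyrk1a* shRNA, from *Snrpd2* at -0.65 to *Snrpb* at -0.092 (0.20, standard errors in parentheses), with a median of -0.45. Once length and GC trends were removed 4 of the 7 were below 0, *Snrpd2* at -0.53, *Snrpd3* at -0.47, *Snrpg* at -0.050 and *Snrpb* at -0.022, while *Snrpd1* was at 0.092, *Snrpe* at 0.19 and *Snrpf* at 0.32. Without control replicate 1, 1 of the 7 was below 0. In the LSm ring 6 of 7 were below 0 (median -0.30), with *Lsm2* at 0.15 (0.33) the highest and *Lsm3* at -0.39 (0.38) the lowest, and 2 of 7 were below 0 without control replicate 1. In the U11/U12 group 3 of 3 were below 0 (1 of 3 without control replicate 1), with *Snrnp35* the highest at -0.20 (0.49). In SF3a 3 of 3 were above 0, from 0.0016 for *Sf3a3* (0.23) to 0.18 for *Sf3a1* (0.24), but without control replicate 1 2 of the 3 were below 0. *Sf3a2* was at -0.10 with length and GC trends removed. The sum of *Sf3a2* and all counts of *Plekhj1*, a gene it overlaps, was at -0.35. SF3b, with 5 of its 7 listed genes among those described here, ran from *Sf3b5* at -0.64 (0.38) to *Sf3b2* at 0.029 (0.18), with *Sf3b1* at -0.21 (0.20). U1 ran from *Snrpc* to *Snrpa* at 0.014 (0.20), and U2 from *Snrpb2* to *Snrpa1* at 0.037 (0.28). In U2AF *U2af1*, the subunit that reads the end of the intron, was at -0.34 (0.28) and *U2af2*, which binds the polypyrimidine tract, at 0.15 (0.20). *Snrnp200*, the helicase that unwinds U4 from U6, was at 0.070 (0.21), the highest of its group above *Snrnp27*. The other LSm genes ran from *Lsm12* at -0.34 (0.22) to *Lsm11* at 0.29 (0.29). Apart from the 5 genes named above, the unadjusted p of each was over 0.05.

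*Dyrk1a* shRNA and harmine share the controls, so their changes against control are not independent, and both groups were also compared directly, without the controls in the contrast. No gene of the 40 passed (edgeR quasi-likelihood test with Benjamini-Hochberg adjustment, smallest adjusted p = 0.745), where 0.00943% of all genes did. At an unadjusted p under 0.05, 0 were higher with *Dyrk1a* shRNA (2.91% of all genes) and 2 were lower (2.82%), and DESeq2's Wald test gave 1, with 0 after adjustment. The median was -0.16, with 13 above and 27 below 0, against -0.0011 with 49.9% above 0 over all genes. Both *Dyrk1a* shRNA libraries were above both harmine libraries for 4 genes (10%, background 20.2%) and below both for 15 (37.5%, background 20.8%). With trends of length and GC content removed from each library, the median was -0.044, with 27 genes below 0.

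*Lsm5* had the smallest p of this comparison. Its *Dyrk1a* shRNA libraries, at 29.1 and 24.8 CPM, were both below those with harmine, at 43.5 and 46.7, with a log2 fold change of -0.75 (standard error 0.23, edgeR quasi-likelihood test, adjusted p = 0.745). It was -0.20 once trends with length and GC content were taken out. *Snrnp27* followed at -0.63 (standard error 0.24, edgeR quasi-likelihood test, adjusted p = 0.83), and *Snrpe* at -0.56 (standard error 0.28), or -0.21 without those trends. *Sf3b2* was the highest, at 0.30 (standard error 0.17), with both *Dyrk1a* shRNA libraries above both with harmine, and at 0.18 without the trends. *Lsm6*, at 55.9 and 45.6 CPM in the controls, 55.7 and 57.6 with harmine and 48.3 and 41.9 with *Dyrk1a* shRNA, was at -0.33 (standard error 0.19), and *Snrpb2* was at -0.33 (standard error 0.19), or -0.038 without the trends.

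The 15 genes whose *Dyrk1a* shRNA libraries were both below those with harmine included 5 of the 7 Sm ring genes (*Snrpd1*, *Snrpd2*, *Snrpe*, *Snrpf* and *Snrpg*) and 4 of the 7 LSm ring genes (*Lsm1*, *Lsm4*, *Lsm5* and *Lsm6*). The rest were *Sf3b1*, *Snrnp27*, *Snrnp35*, *Snrnp40*, *Snrpb2* and *U2af1*. Those above were *Lsm14a*, *Lsm14b*, *Sf3b2* and *Snrpb*, of which *Snrpb* is an Sm ring gene. Over all genes, 20.8% lay below and 20.2% above in this way. By log2 fold change in this comparison, 6 of the 7 Sm ring genes were below 0, and 4 of the 7 once length and GC trends were removed. In the LSm ring it was 6 of 7 both times, but 2 genes changed sign.

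The result against control turned on which control was used. Without control replicate 1 the median of the genes was 0.22 with harmine, with 10 of 40 below 0, and 0.11 with *Dyrk1a* shRNA, with 15 of 40 below 0, and 0 passed. Without control replicate 2 the medians were -0.34 and -0.58, 3 genes passed as lower with harmine (*Snrpc*, *Snrpd2* and *Snrpg*) and 8 with *Dyrk1a* shRNA (*Lsm4*, *Sf3b5*, *Snrnp27*, *Snrpc*, *Snrpd1*, *Snrpd2*, *Snrpe* and *Snrpg*), where 291 and 439 of 10989 genes passed. In these fits the lone control is assumed to vary like the other groups. The median between *Dyrk1a* shRNA and harmine stayed between -0.17 and -0.10 whichever library was left out. That contrast holds no control, so that leaving out a control could move it little. With length and GC trends removed, the medians against control were -0.033 and -0.10, and 7 of the 40 genes changed sign with harmine, 8 with *Dyrk1a* shRNA and 8 between both.

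**Figure D4:**
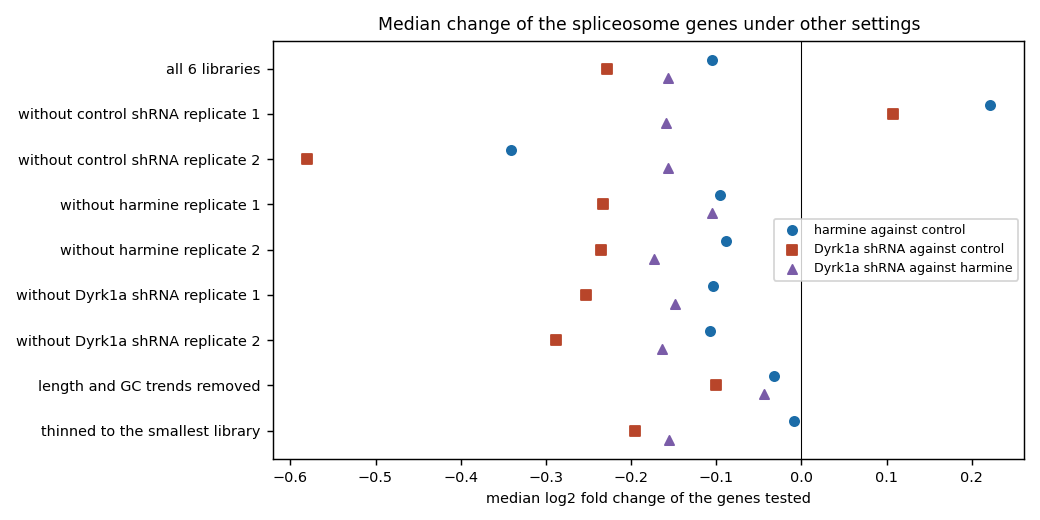
Median log2 fold change of the spliceosome genes tested in each comparison, with all libraries, without each library in turn, with length and GC trends removed and with libraries thinned to the smallest. Blue circles are harmine against control, red squares *Dyrk1a* shRNA against control and purple triangles *Dyrk1a* shRNA against harmine; the circles and squares lie above 0 without control replicate 1 and furthest below 0 without control replicate 2.

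The precision of these libraries was limited. The 95% interval of a gene's log2 fold change reached 0.54 to either side at the median gene with harmine, 0.56 with *Dyrk1a* shRNA and 0.51 between both. These intervals rest on 2 libraries a group, and larger changes than these did not pass either. Overlapping genes add uncertainty to some of these values, since the counting is not stated to use strand. *Sf3a2*, at 13.2 and 9.29 CPM in the controls, 17.9 and 12.9 with harmine and 14.2 and 10.9 with *Dyrk1a* shRNA, overlaps *Plekhj1* on the opposite strand by 429 bases. Its log2 fold change with harmine was 0.42, and that of the sum of both genes was -0.34. Such a sum holds all counts of the other gene, so that it describes both genes and not *Sf3a2* alone. *Sf3b3* (with *Cog4* and *Snord111*), *Snrpa* (with *BC024978*), *Snrpd3* (with *Gucd1*), *Snrpf* (with *Ccdc38* and *4933408J17Rik*) and *Sf3a3* (with *Mir697*) overlap other genes too. *Sf3b3*, the propeller scaffold of SF3b, was at 100 and 96.2 CPM in the controls, 86.1 and 116 with harmine and 75.5 and 118 with *Dyrk1a* shRNA, with both treated groups spanning the controls. *Sf3a3* was at 34.5 and 50.6, 35.2 and 41.7, and 40.6 and 43.3, inside the controls. *Snrpa*, the U1 A protein, was at 59.6 and 62.5, 57.5 and 57.0, and 65.9 and 57.5, and *Snrpf*, of the Sm ring, at 89.1 and 43.9, 68.3 and 69.4, and 55.2 and 59.5.

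Other genes of the splicing pathway, in 8 lists beside the 41 genes, held 0 genes that passed in any comparison. The lists were chosen with results of these data known. Of 16 snRNP assembly genes, 9 were below 0 with harmine and 11 with *Dyrk1a* shRNA, with medians of -0.060 and -0.12. *Tgs1*, which adds the trimethyl cap of snRNAs, was at -0.38 (standard error 0.26) with harmine and -0.77 (0.28) with *Dyrk1a* shRNA, *Phax*, the snRNA export adaptor, at -0.53 (0.24) and -0.36 (0.24), and *Wdr77*, of the methylosome that modifies Sm proteins, at 0.61 (0.23) and 0.44 (0.24). The first and second were below 0 and the third above 0 in both comparisons, which share their controls. For the genes of the 8 lists, no values were taken without single libraries or with length and GC trends removed.

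The 14 other U5 and tri-snRNP proteins had medians of -0.051 with harmine and 0.13 with *Dyrk1a* shRNA, where 11 were above 0. *Eftud2*, the U5 GTPase, was at 0.39 (standard error 0.24) and 0.58 (0.24). *Prpf6*, the tri-snRNP bridge, was at -0.019 (0.20) and 0.34 (0.19), and *Nhp2l1*, which binds U4 RNA, at -0.13 (0.23) and -0.37 (0.23). *Snrnp27*, a tri-snRNP protein as well, was at -1.06 with *Dyrk1a* shRNA, and the difference from this list was not tested.

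Of 15 Prp19 complex genes 11 were below 0 with *Dyrk1a* shRNA (median -0.16) and 7 with harmine (median 0.0067). *Bud31* was at -0.51 (standard error 0.24) with harmine and -0.75 (0.25) with *Dyrk1a* shRNA, *Ctnnbl1* at 0.29 (0.25) and 0.49 (0.25), and *Isy1* at -0.36 (0.20) and -0.18 (0.20). Among 12 genes of branch site and 3′ splice site recognition (8 below 0 in each comparison with control, medians -0.17 and -0.10), *U2surp*, which binds U2, was at -0.30 (0.21) and -0.62 (0.22), *Rbm17*, which contacts SF3B1, at 0.55 (0.20) and 0.089 (0.20), and *Ddx46*, the helicase that prepares U2 for the branch site, at -0.29 (0.19) and -0.36 (0.19).

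Of 15 splicing helicases and factors of the catalytic steps 9 were below 0 in each comparison with control (medians -0.025 and -0.055). *Prpf39*, *Luc7l3* and *Luc7l2*, which act with U1, were at -0.17 (standard error 0.21), -0.27 (0.20) and 0.076 (0.17) with harmine and at -0.60 (0.22), -0.52 (0.20) and -0.41 (0.18) with *Dyrk1a* shRNA. The 8 U12-type genes had medians of -0.22 and -0.31, with *Zcrb1* at -0.19 (0.24) and -0.68 (0.25), *Rnpc3* at -0.67 (0.31) and -0.83 (0.32), and *Pdcd7* at 0.66 (0.29) and 0.33 (0.30).

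The partners of the decay ring, 10 decapping genes, had medians of -0.019 and -0.00035, with *Dcp2*, the decapping enzyme, at -0.45 (standard error 0.23) and -0.56 (0.23), *Xrn1*, the 5′ exonuclease, at -0.29 (0.31) and -0.64 (0.32), and *Edc4* at -0.26 (0.23) and 0.054 (0.23). The 10 histone message processing genes, which act with the U7 snRNP, had medians of -0.016 and -0.074, with *Sympk* at 0.42 (0.22) and 0.78 (0.22), *Casp8ap2* at 0.017 (0.26) and -0.54 (0.27), and *Ncbp2* at -0.27 (0.23) and -0.37 (0.24). None of these passed, and the count below an unadjusted p of 0.05 over a list was between 0 and 3 in every comparison. With *Dyrk1a* shRNA against control, 3 of the 15 helicases and catalytic step factors were lower at that threshold (edgeR quasi-likelihood test). So were 2 of the 8 U12-type genes and 2 of the 16 snRNP assembly genes, against 4.59% of all genes. In each of these lists 0 genes were higher at that threshold.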

How the data were processed

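The authors prepared polyA RNA from the 6 libraries, primed cDNA with poly-dT, tagmented it by Nextera and read it on a MiSeq. Alignment by the authors used TopHat2 2.0.13 and mm10, and the deposited values are expected counts per gene over known transcripts, estimated with RSEM and not scaled. No source used here states whether the counting used strand. Expected counts were rounded to whole numbers, filtered (filterByExpr, minimum count 10, 10607 of 23420 genes kept) and scaled by TMM. Groups were compared with edgeR 4.0.16 (glmQLFit and glmQLFTest, R 4.3.3), all 6 libraries sharing 1 fit of 3 groups, and genes were called at a Benjamini-Hochberg adjusted p of 0.05 over all genes tested.

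The 41 genes, their roles and the other lists were chosen with earlier results of these data known. Values are given for up to 6 genes per comparison with the smallest p and for the 6 of highest mean CPM. They are also given for the highest and lowest fold change of each role against control, for genes with overlapping or near-identical copies and for *Dyrk1a*. From each other splicing list, up to 3 genes with the smallest unadjusted p against control are given, whereas marker lists are given as sums. Positions are those of GENCODE M21 (GRCm38, the assembly of mm10), to which 21777 symbols matched (93%), and promoters those of RefSeq. The settings varied were the scaling (library size alone, size factors of DESeq2), the tool (DESeq2 1.42.0), the filter (none, or a minimum count of 50), a block for the replicate number, fits of 2 groups alone, natural splines with 4 degrees of freedom in length and GC content (values for 94.2% of the genes tested), thinning to 1096345 counts, sums with overlapping genes, and each library left out. The median coding length and the counts by role under other settings were chosen after seeing the data. Replicates differed by more than sampling noise in every group (chi-square per degree of freedom 10.4 for the controls, 3.84 for harmine, 3.58 for *Dyrk1a* shRNA), and each was counted as its own library.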

Additional observations from a re-analysis of the deposited data

How the results depend on the processing

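Across 49 changes of single genes and 778 values under other settings, 715 kept their direction and did not pass the threshold, 56 changed sign and 7 came to pass. None of these changes passed in the fit of all 6 libraries, so that none could cease to pass. The cause of the changes of sign was not tested. Leaving out single libraries moved the count of genes that passed from 0 to 3 with harmine and from 0 to 8 with *Dyrk1a* shRNA, and the medians from -0.34 to 0.22 and from -0.58 to 0.11. Without a filter, 1 gene passed with *Dyrk1a* shRNA, where 28 of all 15589 genes passed. The level of *Dyrk1a* itself ranged from -0.45 without control replicate 1 to 0.069 without control replicate 2. Between *Dyrk1a* shRNA and harmine 0 genes passed under every setting run.

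With harmine, leaving out single libraries gave log2 fold changes from -0.86 to 0.67 for *Lsm10*, -0.22 to 0.91 for *Lsm11*, -0.61 to 0.048 for *Lsm7*, -0.40 to 0.16 for *Sf3a3*, -0.19 to 0.23 for *Sf3b3*, -0.87 to 0.77 for *Sf3b5*, -0.037 to 0.13 for *Snrnp40*, -0.084 to 0.096 for *Snrnp70*, -0.12 to 0.68 for *Snrpa1*, -0.93 to 0.25 for *Snrpd2*, -0.70 to 0.010 for *Snrpd3*, -0.34 to 0.79 for *Snrpe*, -0.52 to 0.58 for *U2af1* and -0.015 to 0.20 for *U2af2*. With *Dyrk1a* shRNA they ran from -0.12 to 1.00 for *Lsm11*, -0.25 to 0.86 for *Lsm2*, -0.92 to 0.70 for *Lsm3*, -0.17 to 0.58 for *Sf3a1*, -0.28 to 0.29 for *Sf3a3*, -0.053 to 0.10 for *Sf3b2*, -1.19 to 0.45 for *Sf3b5*, -0.10 to 0.24 for *Snrnp200*, -0.42 to 0.14 for *Snrnp35*, -0.083 to 0.11 for *Snrpa*, -0.28 to 0.52 for *Snrpa1*, -0.35 to 0.23 for *Snrpb*, -1.10 to 0.077 for *Snrpd2* and -0.75 to 0.34 for *U2af1*. Among other settings, summing with overlapping genes gave -0.34 for *Sf3a2* and *Plekhj1* together with harmine. Removing length and GC trends gave -0.058 for *Snrnp70* and 0.061 for *U2af1* with harmine, and -0.16 for *Sf3b2* and -0.0028 for *Snrnp200* with *Dyrk1a* shRNA. Thinning gave -0.078 for *Sf3b3*, -0.026 for *Snrnp70* and 0.045 for *U2af1* with harmine, and -0.061 for *Snrpa* and -0.0023 for *Snrpa1* with *Dyrk1a* shRNA. *Sf3a3* with *Dyrk1a* shRNA, at 0.0016, was at -0.0042 with DESeq2's size factors, -0.0061 by its Wald test, -0.0083 at a minimum count of 50 and -0.012 in a fit of its 2 groups alone.

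The labels do not say that equal replicate numbers mark a shared mouse or day. Deviations of same-numbered replicates correlated at 0.12 between control and harmine, 0.020 between control and *Dyrk1a* shRNA and 0.24 between harmine and *Dyrk1a* shRNA, across 10607 genes, which are not independent. With the replicate number as a block 0 genes passed in the 3 comparisons, the medians were -0.083, -0.22 and -0.15, and *Snrnp70* with harmine and *Sf3a3* with *Dyrk1a* shRNA changed sign to -0.0019 and -0.0028. Levels per length moved by more than the spread over libraries for 21 of the 41 genes when the median coding transcript was used as length. The controls were the shallowest libraries, and *Snrpn* and *Snrnp35* had few counts in them.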
